A study of Mus musculus with 4 samples.

Results

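Major histocompatibility complex (MHC) class I molecules show peptides from inside the cell to CD8 T cells. Described here are the mouse class I heavy chains H2-K1, H2-D1, H2-Q4, H2-Q6, H2-Q7, H2-T22 and H2-T23 and their shared light chain B2m, beta-2 microglobulin, 8 of the 13518 genes in a single-cell RNA table. They were taken by symbol from a list and not by a threshold on any value, and all 8 are in the table. H2-K1 and H2-D1 are the classical heavy chains, and the other 5 heavy chains are non-classical.

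The tumours grew from MC38, a mouse colon carcinoma line, implanted orthotopically in C57BL/6 mice. The arms were vehicle (the sample's own entry says no treatment, the treatment protocol says vehicle control), anti-PD-1 (an antibody against the inhibitory T cell receptor PD-1, 3 times a week, 5 doses), ATT-I (Atractylenolide I, a plant sesquiterpene lactone, 50 mg/kg daily) and the combination of both agents. Each arm gave 1 droplet library, made from 5 pooled tumours taken 2 weeks after the first treatment, so an arm has no replicate and no animal can be followed. The series' title links ATT-I to checkpoint blockade and to antigen presentation by the tumour.

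A classical heavy chain folds in the endoplasmic reticulum with B2m and a peptide delivered by the TAP transporter, and the finished complex is read by the CD8 T cell receptor. Non-classical heavy chains are less variable between mice and serve other receptors: H2-T23 encodes Qa-1, the ligand of the CD94/NKG2 receptors of natural killer (NK) and CD8 T cells, H2-T22 is a ligand of some gamma-delta T cells, and H2-Q7 encodes Qa-2. Interferons raise class I genes through an interferon-stimulated element in their promoters and through the coactivator Nlrc5. Almost all nucleated cells, T cells included, make class I.

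Anti-PD-1 gave 12562 of the 13213 cells, ATT-I 297, the combination 199 and vehicle 155. A library held between 2878355 (ATT-I) and 108628721 (anti-PD-1) unique molecular identifiers (UMIs), each standing for 1 captured RNA molecule. By library, the median UMIs per cell were 23927 (combination), 16129 (vehicle), 7148 (anti-PD-1) and 6828 (ATT-I). Although the labelled tissue is tumour, summed T cell markers stood at 43.9 to 77.2 UMIs per 10000 against 0.055 to 1.45 for epithelial tumour markers (5 of 7 in the table), with Krt8 at 0 in vehicle and Krt19 and Cldn7 at 0 in the combination. The values below are therefore mostly class I levels of T cells, and class I of tumour cells is not analysed here. Macrophage or monocyte, fibroblast, and dendritic or B cell markers summed to at most 1.16 in any library. Red blood cell markers summed to 53.8 under ATT-I and at most 0.738 elsewhere, and NK markers to 8.84 in vehicle, 3.91 under anti-PD-1, 3.98 under ATT-I and 0.724 under the combination; their part in the results was not tested. Only 1 barcode was found in 2 libraries.

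The 8 genes lie on chromosome 17, in the MHC, except B2m on chromosome 2. In GRCm38 (GENCODE M21), H2-K1 spans chr17:33996017-34000347 on the minus strand, H2-D1 chr17:35262730-35267499 on the plus strand and B2m chr2:122147686-122153083 on the plus strand. The Q genes follow H2-D1 on the plus strand, at chr17:35379617-35385290 (H2-Q4), chr17:35424850-35430055 (H2-Q6) and chr17:35439155-35443773 (H2-Q7). The T genes lie on the minus strand at chr17:36037128-36042747 (H2-T22) and chr17:36029773-36032855 (H2-T23).

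Promoter sequence is shown because cells with and without an interferon-stimulated transcript are compared below. Each line gives 30 bases around the interferon element in the 250 bases before the RefSeq start (GRCm38.p6), 5′ to 3′ in the direction of transcription. The RefSeq starts of H2-D1 (chr17:35263094) and H2-T23 (chr17:36032701) lie inside the GENCODE spans above, and so do their stretches. H2-K1 had 2 windows, of which the first was used. Its stretch lies inside the RefSeq gene, which reaches chr17:34000619. Capitals mark the interferon element TTTCNNTT (searched on both strands) and any match in the stretch to the kappaB site, which was searched on both strands as GGGA, any base, T, any base, CCC. The stretches are chr17:34000428-34000457 (H2-K1, minus strand), chr17:35262924-35262953 (H2-D1, plus), chr2:122147548-122147577 (B2m, plus), chr17:35379444-35379473 (H2-Q4, plus), chr17:35424678-35424707 (H2-Q6, plus), chr17:35439022-35439051 (H2-Q7, plus), chr17:36042924-36042953 (H2-T22, minus) and chr17:36032816-36032845 (H2-T23, minus).
H2-K1: GGGATTCCCCatctccacagTTTCACTTct
H2-D1: GGGATTCCCCatctcctcagTTTCACTTct
H2-Q4: GGGATTTCCCatctccccagTTTCACTTct
H2-Q6: GGGATTCCCCatctccccagTTTCACTTct
H2-Q7: GGGGATTCCCatctccccagTTTCACTTct
H2-T22: agagtccctaattggcttagTTTCACTTtc
H2-T23: atgaaaagggatcctactgcTTTCTCTTtc
B2m: gaAACTGAAAatgggaaagtccctttgtaa

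All 8 windows held the interferon element, as did 21.3% of the 32851 promoter windows of that length. The kappaB site was found in 5 of the 8 windows, those of H2-K1, H2-D1, H2-Q4, H2-Q6 and H2-Q7, and in 0.944% of all windows. In those 5 the kappaB match stands just before the element, and the windows of H2-T22, H2-T23 and B2m held no match of these letters. The CCAAT box (CCAAT, both strands) was in 8 of 8 windows and 33.9% of all, and the cyclic AMP element core (TGACG, both strands) in 6 of 8 and 17.8% of all. In H2-T22, H2-T23 and B2m the element is followed by TC when read in its own direction (for B2m, preceded by GA as printed), which holds in 2.98% of all windows; this last search was added after the stretches had been seen. H2-T23 holds a second match to the element, 81 bases before its start, which is not followed by TC.

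A level is the UMIs of a gene pooled over a library's cells per 10000 UMIs of those cells, with an exact Poisson 95% interval that covers counting error only. Levels are not divided by transcript length, so they are compared between libraries and cells and not between genes. With 1 library per arm there is no test between arms, and a gene is called higher or lower where 2 libraries differ by at least 0.32 on the log2 scale.

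Of the classical heavy chains, H2-K1 stood at 26.9 in vehicle (95% interval 26.3 to 27.4), 33.8 under anti-PD-1 (33.7 to 33.9), 26.8 under ATT-I (26.2 to 27.4) and 24.7 under the combination (24.3 to 25.1). Its anti-PD-1 level was the highest of the 4, and vehicle and ATT-I lay within each other's intervals. H2-D1 showed the same order at the top, at 19.99 in vehicle (19.5 to 20.5), 27.8 under anti-PD-1 (27.7 to 27.9), 21.2 under ATT-I (20.7 to 21.8) and 19.1 under the combination (18.7 to 19.4). The interval of the combination ends just below that of vehicle.

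B2m, the light chain that every heavy chain needs, was ordered differently. It stood at 33.7 in vehicle (33.0 to 34.3), 29.6 under anti-PD-1 (29.5 to 29.7), 26.7 under ATT-I (26.1 to 27.3) and 33.1 under the combination (32.6 to 33.6). The vehicle and combination intervals overlap, and anti-PD-1 and ATT-I lie below both.

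Of the Q genes, H2-Q4 stood at 2.95 in vehicle, 2.13 under anti-PD-1, 2.46 under ATT-I and 2.76 under the combination. H2-Q6 stood at 3.58, 2.24, 3.10 and 3.12 in the same order. For both the anti-PD-1 library, the highest for H2-K1 and H2-D1, was the lowest, and vehicle was the highest. H2-Q7 varied little, at 11.2, 11.6, 10.6 and 11.4.

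Of the T genes, H2-T22 stood at 2.38 in vehicle, 2.71 under anti-PD-1, 2.47 under ATT-I and 2.26 under the combination. H2-T23, the Qa-1 gene, stood at 3.88, 4.46, 3.96 and 3.89. Anti-PD-1 was again the highest library for both, and the other 3 libraries of each gene have overlapping intervals.

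**Figure D1:**
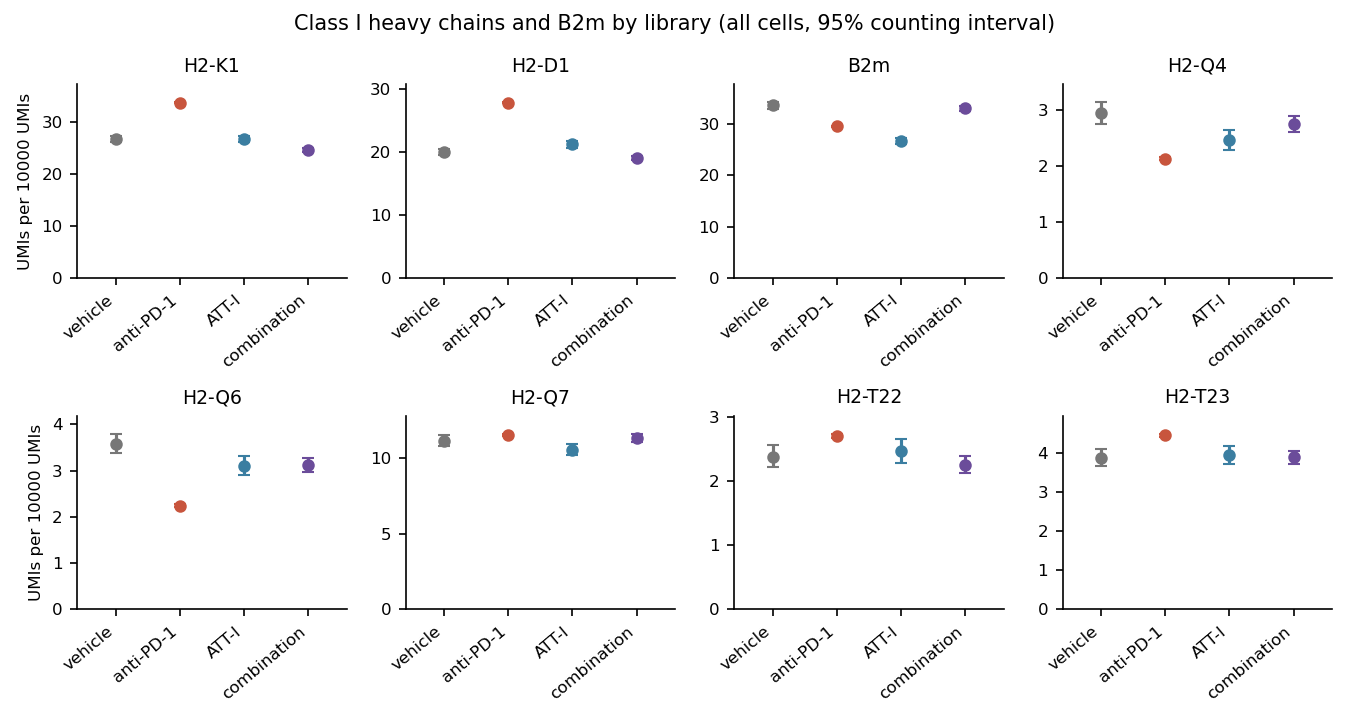
Level of each gene (UMIs per 10000 UMIs, vertical axis from 0) in the 4 libraries over all cells, with points for the pooled level and bars for the 95% counting interval. H2-K1 and H2-D1 are highest in anti-PD-1, H2-Q4 and H2-Q6 are lowest there, and B2m is lowest in ATT-I.

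Anti-PD-1 differed from vehicle in opposite directions within the family. H2-K1 was higher by 0.33 on the log2 scale (95% interval 0.30 to 0.36) and H2-D1 by 0.48 (0.44 to 0.51), while H2-Q4 was at -0.47 (-0.56 to -0.37) and H2-Q6 at -0.68 (-0.76 to -0.59). That makes 2 of 8 higher, where 18.0% of the 8475 genes compared were higher, and 2 of 8 lower, where 45.3% were lower. The median of all those genes was -0.24. Relative to it 4 of 8 were past the fold upwards, H2-K1 at 0.57, H2-D1 at 0.72, H2-T22 at 0.43 and H2-T23 at 0.44. Downwards 1 was, H2-Q6 at -0.44, with H2-Q4 at -0.23 no longer past it. After the same shift 31.5% of all genes were higher and 30.7% lower. Without that shift, B2m at -0.19, H2-Q7 at 0.05, H2-T22 at 0.19 and H2-T23 at 0.20 were not past the fold.

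ATT-I against vehicle had B2m, at -0.33 (-0.38 to -0.29), as its 1 called gene of 8. Of 8484 genes compared, 12.3% were higher and 42.6% lower. Their median was -0.22, and relative to the median gene B2m was not past the fold. H2-K1 was at -0.00 (-0.05 to 0.04) and H2-D1 at 0.09 (0.04 to 0.14). The combined level of the 7 heavy chains was 70.8 in vehicle and 70.6 in ATT-I.

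The combination against vehicle had 0 of 8 genes past the fold, where 12.8% of 8853 genes were higher and 27.0% lower. Its values ran from -0.20 (H2-Q6) to 0.02 (H2-Q7), with H2-K1 at -0.12 and B2m at -0.02.

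The combination was lower than anti-PD-1 for H2-K1, at -0.45 (-0.48 to -0.43), and for H2-D1, at -0.55 (-0.58 to -0.52), and higher for H2-Q4 by 0.37 (0.29 to 0.45) and H2-Q6 by 0.48 (0.41 to 0.55). That is 2 of 8 higher, against 37.5% of 8603 genes, and 2 of 8 lower, against 21.9%. The median of all genes was 0.13. Relative to it 1 of 8 was past the fold upwards, H2-Q6 at 0.35, with H2-Q4 at 0.24. Downwards 4 were, H2-K1 at -0.58, H2-D1 at -0.68, H2-T22 at -0.40 and H2-T23 at -0.33. After the same shift 30.1% of all genes were higher and 29.5% lower. This comparison and that of anti-PD-1 with vehicle share the anti-PD-1 library, so they are not independent. Against ATT-I alone the combination had 0 of 8 past the fold, where 37.4% of 8612 genes were higher and 19.4% lower, and B2m came closest at 0.31 (0.27 to 0.35).

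In classes of 20 or more cells, the sum of H2-K1 and H2-D1, the sum of the 5 non-classical genes and the level of B2m were each lower in cells with more UMIs inside every library. In anti-PD-1 the sum of H2-K1 and H2-D1 was 79.9 UMIs per 10000 in the 3075 cells under 5000 UMIs, 67.3 from 5000 up to 10000, 55.8 from 10000 up to 20000 and 45.0 in the 542 cells at 20000 or more. The same sum in vehicle was 74.5, 55.2 and 39.8 over the last 3 of these classes, in ATT-I 55.5, 44.7 and 37.9, and in the combination 72.7, 56.7 and 40.3. Below 5000 UMIs vehicle had 11 cells and the combination 6, too few to set beside the others. Single genes did not all follow: over the last 3 classes H2-T22 was 2.39, 2.51 and 2.29 in vehicle and 2.04, 2.29 and 2.23 under the combination. The share of cells with an Mki67 UMI (Mki67 is a protein of cycling cells) was higher along the same classes, from 14.2% to 91.5% in anti-PD-1. A cell with more UMIs is also more likely to show an Mki67 UMI: with every cell of 3000 or more UMIs thinned to 3000 the share over all depths went from 67.1% to 49.7% in vehicle and from 32.3% to 20.5% in anti-PD-1.

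From 5000 up to 20000 UMIs the libraries fall in another order. From 5000 up to 10000 UMIs the classical sum was 74.5 in vehicle (71.4 to 77.7), 67.3 under anti-PD-1 (67.1 to 67.6), 55.5 under ATT-I (53.8 to 57.1) and 72.7 under the combination (68.5 to 77.0), with ATT-I the lowest. B2m there was 43.3, 32.5, 30.5 and 46.4, and the 5 non-classical genes together 32.6, 25.2, 25.9 and 38.3. Vehicle and the combination lay above anti-PD-1 and ATT-I for both. The median of all genes against vehicle in this class was -0.51 for ATT-I, -0.43 for anti-PD-1 and -0.08 for the combination. In this class 5995 anti-PD-1, 108 ATT-I, 41 vehicle and 20 combination cells were counted.

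**Figure D2:**
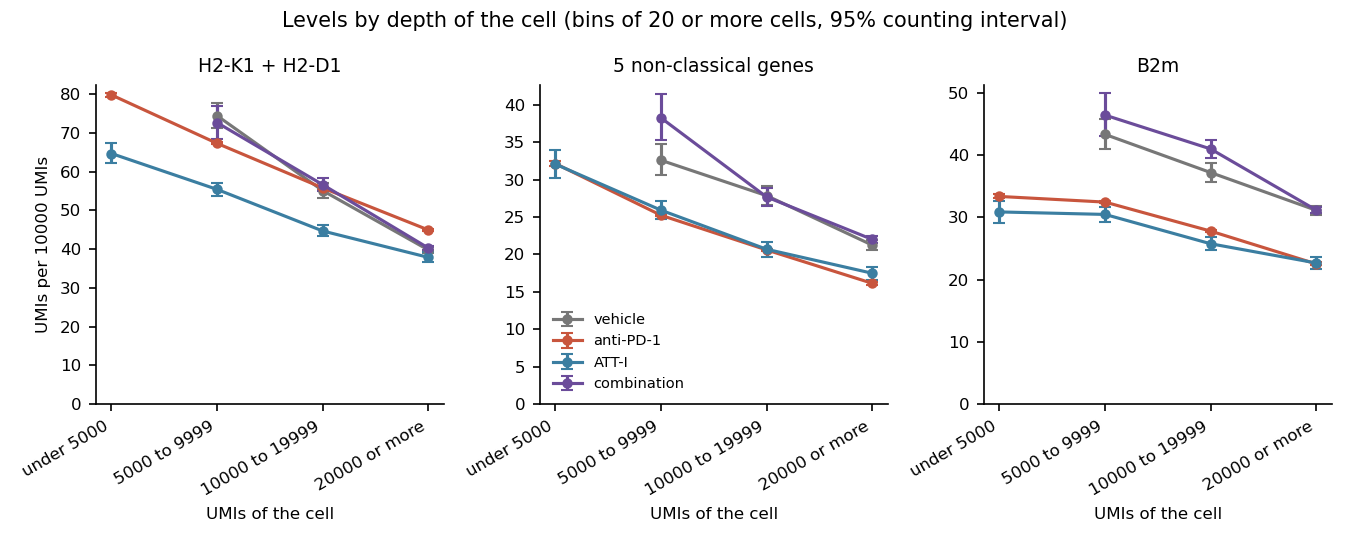
Level (UMIs per 10000 UMIs) of the classical pair, of the 5 non-classical genes and of B2m against the UMIs of the cell, by library, with the 95% counting interval and only classes of 20 or more cells. Every line falls from left to right, and from 5000 up to 10000 UMIs vehicle and the combination lie above ATT-I in all 3 panels.

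In cells of 5000 to 20000 UMIs the anti-PD-1 difference of H2-K1 from vehicle turned to -0.15 (-0.19 to -0.10), and that of H2-D1 shrank to 0.22 (0.16 to 0.28). H2-Q4 and H2-Q6 stood further below vehicle, at -0.75 and -0.92, and B2m was at -0.38. For ATT-I against vehicle in the same cells, 7 genes ran from -0.12 (H2-D1) to -0.48 (B2m), with H2-K1 at -0.42, and H2-T22 was at -0.03. The median of all genes in that comparison was -0.45. Of the class I genes only B2m lay below it, so these values do not show a fall particular to the family. The combination against vehicle stayed between -0.13 (H2-T22) and 0.10 (B2m). Against anti-PD-1 the combination was at 0.04 for H2-K1, -0.18 for H2-D1, 0.47 for B2m, 0.62 for H2-Q4 and 0.79 for H2-Q6. Not set against the median gene, H2-K1 thus changed direction in this range between anti-PD-1 and vehicle, and between the combination and anti-PD-1. B2m, H2-Q4 and H2-Q6 kept theirs in every comparison but that of the combination with vehicle, where B2m went from -0.02 to 0.10. The median of all genes in this range was itself -0.42 for anti-PD-1 against vehicle and 0.30 for the combination against anti-PD-1. H2-K1 stood above the first median and below the second, as it did over all cells. At 20000 or more UMIs H2-K1 stood at 21.8 in vehicle (21.2 to 22.5), 24.02 under anti-PD-1 (23.8 to 24.3), 20.8 under ATT-I (19.8 to 21.7) and 22.5 under the combination (22.05 to 22.9), with anti-PD-1 again above the others. The range of 5000 to 20000 UMIs holds 8945 anti-PD-1, 164 ATT-I, 82 vehicle and 70 combination cells, and their median cells still differ, from 8098 UMIs in ATT-I to 13406 in the combination.

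The makeup of the libraries also differed. CD8-gated cells (at least 2 UMIs of Cd8a and Cd8b1 together and at least 3 times the Cd4 UMIs) were 70.5% of anti-PD-1, 60.8% of combination, 36.4% of ATT-I and 31.6% of vehicle cells. Of those CD8 cells 35.2%, 90.1%, 39.8% and 91.8% were Mki67-positive, in the same order. The 2 libraries with the deepest cells were thus also those with the highest share of Mki67-positive CD8 cells, and depth, division and arm cannot be told apart here.

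In CD8-gated cells alone the split of the family was wider. H2-K1 stood at 23.6 in vehicle, 32.0 under anti-PD-1, 24.5 under ATT-I and 22.3 under the combination, and H2-D1 at 16.9, 26.7, 18.7 and 17.6. H2-Q6 stood at 4.17, 2.21, 3.31 and 3.21, its vehicle level being the highest of the 4. On the log2 scale anti-PD-1 differed from vehicle by 0.44 for H2-K1, 0.66 for H2-D1, -0.67 for H2-Q4 and -0.91 for H2-Q6.

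Conventional CD4 cells (Cd4 but no Foxp3 UMIs) showed a different order for H2-K1, with vehicle the highest. H2-K1 there was 38.9 in vehicle, 37.2 under anti-PD-1, 28.9 under ATT-I and 32.4 under the combination. In the same order of libraries H2-D1 was 24.3, 29.1, 22.2 and 23.96, with anti-PD-1 still the highest, and B2m 40.7, 31.4, 26.9 and 39.2. ATT-I was the lowest library for H2-K1, H2-D1 and B2m. In regulatory cells (Foxp3 UMIs, outside the CD8 gate) H2-K1 was 25.6, 44.8, 31.9 and 28.6, so that anti-PD-1 differed from vehicle by 0.81. H2-Q4 and H2-Q6, lower in anti-PD-1 than in vehicle for CD8 and conventional CD4 cells, were at -0.20 and 0.08 in regulatory cells. These rest on 1152 anti-PD-1, 30 combination, 28 ATT-I and 25 vehicle regulatory cells.

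The ratio of classical to non-classical UMIs was 1.95 in vehicle (95% interval 1.90 to 2.01), 2.66 under anti-PD-1 (2.65 to 2.68), 2.13 under ATT-I (2.07 to 2.19) and 1.87 under the combination (1.83 to 1.91). It cancels the total of the library, and anti-PD-1 was the highest in every gate read, from 2.38 in Ifit3-positive to 2.98 in conventional CD4 cells. Vehicle CD8 cells had the lowest value, 1.55, and vehicle Mki67-negative cells came nearest to anti-PD-1, at 2.57 against 2.71. Between anti-PD-1 and vehicle the log2 ratio differed by 0.45 over all cells and by 0.36 in cells of 5000 to 20000 UMIs, and between the combination and anti-PD-1 by -0.51 and -0.41. These ratio differences therefore kept their direction in that range, where that of H2-K1, not set against the median gene, turned. The combination and vehicle were not ordered alike in every gate: the combination was lower over all cells but higher in CD8 cells, at 1.70 against 1.55, and in regulatory cells, at 2.41 against 2.20.

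**Figure D3:**
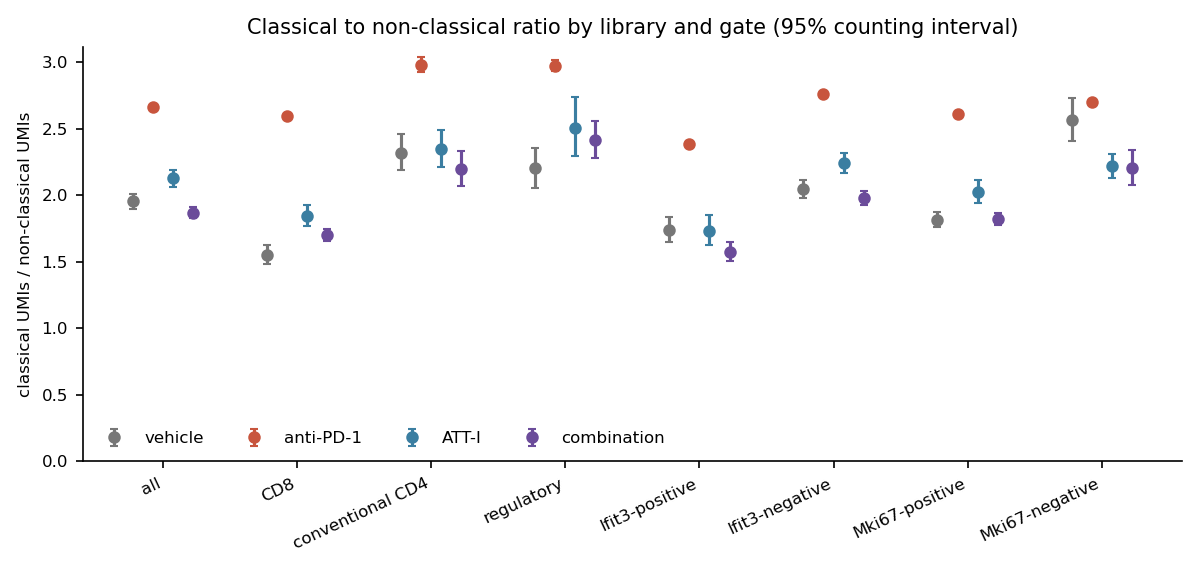
Ratio of classical UMIs (H2-K1, H2-D1) to non-classical UMIs (H2-Q4, H2-Q6, H2-Q7, H2-T22, H2-T23), vertical axis from 0, by library and gate, with the 95% counting interval. Anti-PD-1 is the highest library in each of the 8 gates, between 2.38 and 2.98.

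Cells gated by transcripts other than class I could be compared across the 4 libraries, each giving 1 pair of pooled levels. limma's moderated test on log2(level + 0.1), with the library as a block and Benjamini-Hochberg adjustment over all genes tested, was called at an adjusted p under 0.05. It asks whether a difference recurs over 4 libraries of 4 arms, and says nothing of any single arm. The share of all genes called was counted for the main fit of each comparison only, so counts under other settings stand without it.

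Ifit3 is induced by interferon, and cells with an Ifit3 UMI made up 20.2% (ATT-I) to 27.7% (vehicle) of a library. This share depends on depth. With every cell of 3000 or more UMIs thinned to 3000 it was 16.99% in vehicle, 15.2% under ATT-I and 14.7% under anti-PD-1. Under the combination it went from 22.1% to 5.67%, the lowest share at that depth. The levels below use the gate without thinning. All 8 genes were higher in Ifit3-positive cells in 4 of 4 libraries, and 7 of 8 passed the test, where 4.10% of 6263 genes were higher and 1.52% lower. The T genes came first. H2-T22 rose from 2.08 to 3.36 in vehicle, from 2.40 to 3.86 in anti-PD-1, from 2.10 to 4.57 under ATT-I and from 1.88 to 3.75 in the combination, so that no positive level overlapped a negative one. Its mean log2 difference was 0.84 (SE 0.09, adjusted p = 0.000188).

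H2-T23 rose by 0.65 (SE 0.07, adjusted p = 0.000221), with library differences of 0.51 to 0.76. Among the Q genes the rise was 0.57 for H2-Q4 (SE 0.08, adjusted p = 0.00166), 0.43 for H2-Q7 (SE 0.07, adjusted p = 0.00320) and 0.37 for H2-Q6 (SE 0.08, adjusted p = 0.0163). H2-D1, B2m and H2-K1 moved least. H2-K1 went from 25.4 to 31.5 in vehicle, 32.6 to 38.0 in anti-PD-1, 25.7 to 33.2 under ATT-I and 23.9 to 28.0 in the combination, a mean of 0.28 (SE 0.05, adjusted p = 0.0116), and its 2 sides overlap between libraries. B2m rose by 0.24 (SE 0.05, adjusted p = 0.0261), and H2-D1 was at 0.20 (SE 0.06, adjusted p = 0.0699).

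The 2 sides were of similar depth in 3 libraries, and ATT-I positive cells were shallower. The median positive and negative cell held 15324 and 16489 UMIs in vehicle, 6681 and 7264.5 under anti-PD-1, 5380.5 and 7195 under ATT-I and 25815 and 23397 under the combination. In cells of 5000 to 20000 UMIs, where 3 libraries had enough cells, H2-T22, H2-T23 and H2-Q4 passed, and in CD8-gated cells alone, again with 3 libraries, H2-T22 did. Without the ATT-I library 4 of 8 genes passed, H2-T22, H2-T23, H2-Q4 and H2-Q7.

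**Figure D4:**
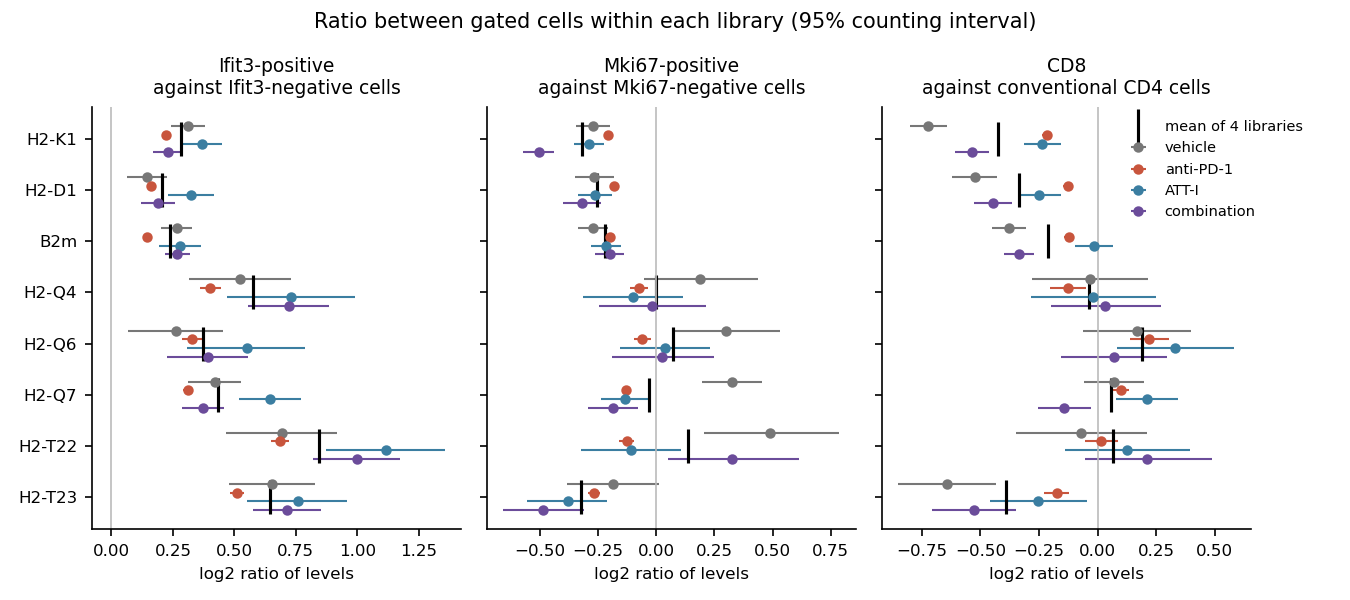
Log2 ratio of each gene's level between 2 gated sides (horizontal axis) within each library, with points coloured by library, 95% counting intervals and a black bar for the mean of the 4 libraries. All points of the Ifit3 panel lie above 0, with H2-T22 and H2-T23 farthest right, and the points of H2-K1, H2-D1, B2m and H2-T23 lie below 0 in the Mki67 and CD8 panels.

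Of the other interferon-stimulated genes, known to be induced together with Ifit3, 19 of 19 rose, with a median of 2.04 against -0.02 for all genes, led by Ifit1 at 3.53 and Isg15 at 3.39. Of 14 class I transcription factors tested, 6 rose and 0 fell, median 0.19, among them Stat2 at 1.55, Irf9 at 1.12, Nlrc5 at 0.66, Irf1 at 0.56 and Irf2 at 0.43. Nlrc5 drives class I promoters directly, and the others named carry interferon signals.

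Genes that feed class I were mixed. Of 5 immunoproteasome and PA28 genes, whose products cut peptides or activate the cutting, 4 rose, from 0.30 (Psmb8) to 0.56 (Psmb10), median 0.33. Of 8 peptide loading genes 2 rose, the chaperone Tapbp at 0.53 and the transporter subunit Tap1 at 0.52, and 1 fell, the chaperone Calr by 0.40, with a median of 0.11. Of 2 other class I genes tested, H2-M3, which presents formylated peptides, rose by 0.42 and H2-Q10 was at 0.34 (adjusted p = 0.0886). Of 6 genes tested from the receptor list, Cd8b1 at 0.53 and Klrk1 at 0.43 rose and 0 fell, median 0.26. CD8-gated cells made up 44.2% of positive and 26.8% of negative vehicle cells, and 38.3% and 35.9% in ATT-I, 76.2% and 68.8% in anti-PD-1 and 77.3% and 56.1% in the combination, and the part of this in the receptor values was not tested.

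Within the 8854 CD8-gated anti-PD-1 cells the levels followed the number of Ifit3 UMIs. H2-T22 was 2.37 in the 6687 cells with 0 Ifit3 UMIs, 2.88 in 1025 cells with 1, 4.05 in 521 cells with 2 to 3 and 5.21 in 621 cells with 4 or more, a 2.20-fold span. H2-T23 went from 3.88 to 6.92 (1.79-fold) and H2-Q4 from 1.90 to 2.99 (1.58-fold). H2-K1 went from 30.5 to 40.02 (1.31-fold), H2-D1 from 25.8 to 31.1 (1.21-fold) and B2m from 28.0 to 33.7 (1.21-fold). Together the non-classical genes spanned 1.56-fold and the classical pair 1.26-fold. The median cell of the 4 classes held 8105, 7511, 6741 and 7034 UMIs. Cells of 1 library are not replicates, so these values carry counting error only and no test.

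**Figure D5:**
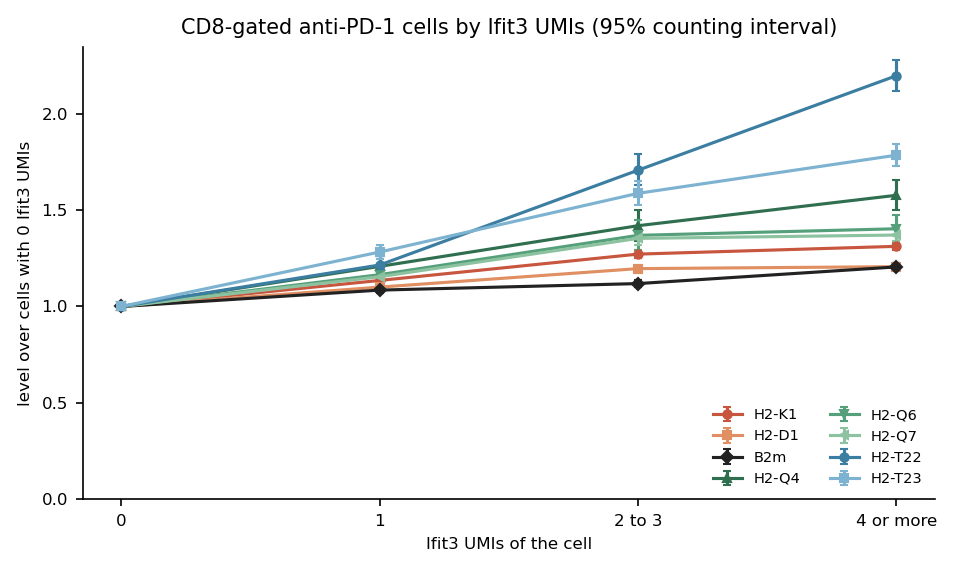
Level of each gene in CD8-gated anti-PD-1 cells relative to cells with 0 Ifit3 UMIs (vertical axis from 0), against the Ifit3 UMIs of the cell, with 95% counting intervals. The 2 T genes separate from the rest, H2-T22 reaching 2.20-fold and H2-T23 1.79-fold, while H2-D1 and B2m end at 1.21-fold.

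The classical to non-classical ratio was lower in Ifit3-positive cells in 4 of 4 libraries, at 1.74 against 2.05 in vehicle, 2.38 against 2.76 in anti-PD-1, 1.74 against 2.24 under ATT-I and 1.58 against 1.98 in the combination. The mean log2 difference was -0.29 (exact two-sided sign-flip permutation test, p = 0.13, the smallest that 4 libraries allow).

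Mki67-positive cells had less of the classical pair. H2-K1 was 25.7 in Mki67-positive and 31.1 in Mki67-negative vehicle cells, 31.1 and 36.0 under anti-PD-1, 24.1 and 29.5 under ATT-I and 23.5 and 33.4 under the combination, a mean fall of 0.32 (SE 0.06, adjusted p = 0.00656). H2-D1 fell by 0.26 (SE 0.05, adjusted p = 0.0108), B2m by 0.22 (SE 0.05, adjusted p = 0.0142) and H2-T23 by 0.32 (SE 0.08, adjusted p = 0.0241), each lower in 4 of 4 libraries. That is 4 of 8 lower, against 4.04% of 7096 genes lower and 13.1% higher. H2-Q4 at 0.00, H2-Q6 at 0.07, H2-Q7 at -0.03 and H2-T22 at 0.14 did not pass, and in vehicle H2-Q6, H2-Q7 and H2-T22 were higher in Mki67-positive cells, at 0.30, 0.33 and 0.49, while in anti-PD-1 they were at -0.06, -0.13 and -0.13. The classical to non-classical ratio was lower in Mki67-positive cells in 4 of 4 libraries, with a mean of -0.24 (exact sign-flip permutation test, p = 0.13).

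Mki67-positive cells were also deeper in every library, with medians of 21837.5 against 8105 UMIs in vehicle, 10808.5 against 6270 in anti-PD-1, 15323.5 against 5484 under ATT-I and 27755 against 11835.5 in the combination. In cells of 5000 to 20000 UMIs 0 of 8 genes passed, with H2-K1 at -0.07 and H2-T23 at -0.01. When every cell was thinned to 3000 UMIs before the gate was read, 1 of 8 passed, B2m. Without the ATT-I library 1 of 8 passed, H2-K1, and without the anti-PD-1 library 2 of 8, H2-K1 and H2-D1. Of the other lists, 3 of 17 interferon-stimulated genes fell (Ifit1 by 0.93, Isg20 by 0.64, Igtp by 0.55), with a median of -0.30 against 0.02 for all genes. Of 8 peptide loading genes 0 passed, of 5 immunoproteasome and PA28 genes Psmb9 rose (0.28), of 15 transcription factors 1 rose (Atf1, 0.41) and 1 fell, of 6 receptors Lilrb4a fell by 0.77, and of 2 other class I genes 0 passed.

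CD8 cells held less of the same 4 genes than conventional CD4 cells. H2-K1 was 23.6 against 38.9 in vehicle, 32.0 against 37.2 in anti-PD-1, 24.5 against 28.9 under ATT-I and 22.3 against 32.4 in the combination, a mean of -0.43 (SE 0.08, adjusted p = 0.00308). H2-D1 was at -0.34 (SE 0.07, adjusted p = 0.00589), H2-T23 at -0.39 (SE 0.10, adjusted p = 0.0122) and B2m at -0.21 (SE 0.07, adjusted p = 0.0388), so that 4 of 8 were lower, against 13.6% of 6474 genes lower and 9.41% higher. H2-Q6 at 0.19, H2-Q7 at 0.06, H2-T22 at 0.07 and H2-Q4 at -0.04 did not pass. The classical to non-classical ratio was lower in CD8 cells in 4 of 4 libraries, by 0.20 to 0.58 on the log2 scale (exact sign-flip permutation test, p = 0.13).

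CD8 cells were also deeper than conventional CD4 cells and more often Mki67-positive in 4 of 4 libraries. The median CD8 and conventional CD4 cell held 24445 and 7673 UMIs in vehicle, 7905.5 and 5744 under anti-PD-1, 9255.5 and 5567 under ATT-I and 28170 and 12613 under the combination. Mki67-positive were 91.8% and 47.3% of them in vehicle, 35.2% and 26.6% under anti-PD-1, 39.8% and 18.9% under ATT-I and 90.1% and 46.2% under the combination, and the part of this in the result was not tested beyond the depth range. In cells of 5000 to 20000 UMIs, with 3 libraries, 0 of 8 genes passed, with H2-K1 at -0.28 and H2-D1 at -0.18. Without vehicle 2 of 8 passed, and without the combination 2 of 8, H2-K1 and H2-D1 each time. The gate uses Cd8a, Cd8b1 and Cd4, so the receptor list, with 5 of 6 genes higher, Lilrb4a lower and a list median of 2.31, is partly fixed by it; outside the gate genes Klrk1 at 2.56, Klrc1 at 2.06 and Klrd1 at 1.51 were higher in CD8 cells, and the last 2 form the CD94/NKG2 receptor of Qa-1. Of 8 peptide loading genes Tapbpl was higher (0.54) and Tap2 lower (-0.54), of 5 immunoproteasome and PA28 genes Psmb10 higher (0.35) and Psme2 lower (-0.27), of 14 transcription factors 2 lower, among them Nfkb1 (-0.95), and of 16 interferon-stimulated genes 1 higher (Mx1, 0.47) and 3 lower, Ifi27l2a the most (-0.98). Of 2 other class I genes 0 passed.

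Between regulatory and conventional CD4 cells the libraries went in opposite directions: all 8 genes were lower in regulatory cells of vehicle and the combination, and all 8 were higher in those of anti-PD-1. limma called 0 of 8 genes, where 4.34% of 6016 genes were higher and 5.95% lower, and 1 of 8, H2-Q4 at -0.35 (SE 0.13, limma adjusted p = 0.1105), was under 0.05 before adjustment. The median regulatory and conventional CD4 cell held 17490 and 7673 UMIs in vehicle, 23344 and 12613 under the combination, 5864.5 and 5744 under anti-PD-1 and 7655 and 5567 under ATT-I. Of regulatory and conventional CD4 cells 96.0% and 47.3% were Mki67-positive in vehicle, 63.3% and 46.2% under the combination, 33.3% and 26.6% under anti-PD-1, and 53.6% and 18.9% under ATT-I. The 2 libraries in which the genes were lower in regulatory cells were those with the widest gap in depth, and the part of depth and Mki67 in this result was not tested. H2-K1 was lower in regulatory cells of vehicle (-0.60) and the combination (-0.18), and higher in anti-PD-1 (0.27) and ATT-I (0.15). In these cells 4 of 8 peptide loading genes were higher (Canx 0.68, Tapbp 0.47, Tap1 0.46, Calr 0.38), as were 2 of 5 immunoproteasome and PA28 genes (Psme1 0.42, Psme2 0.39) and 1 of 15 interferon-stimulated genes (Igtp 0.76), while 3 of 4 receptors were lower, Klrd1 by the most (-1.99). Of 14 transcription factors and 2 other class I genes 0 passed.

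Across single cells the 8 genes varied beyond counting error, and by unequal amounts. In CD8-gated anti-PD-1 cells the coefficient of variation left after the counting part was removed was 25.8% for B2m, 31.8% for H2-D1, 36.9% for H2-K1, 39.4% for H2-Q7, 46.1% for H2-T23, 48.5% for H2-Q6, 49.6% for H2-T22 and 52.2% for H2-Q4. B2m was the least variable in vehicle (29.2%) and ATT-I (30.3%) too, while in the combination H2-D1 (32.6%) was below B2m (35.4%). Depth differs between these cells and enters the spread.

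Some pairs of genes varied together more than others. With the counting part removed, the correlation over the 8854 cells was 0.92 for H2-K1 with H2-D1, 0.87 for H2-K1 with H2-Q7, 0.86 for H2-Q4 with H2-Q6 and 0.81 for H2-T22 with H2-T23. B2m followed H2-D1 at 0.76 and H2-K1 at 0.73, and was farthest from H2-Q6 at 0.44. These are descriptions over cells of 1 library that share their depth. The genes of these pairs also share transcript sequence with each other: H2-Q4 with H2-Q6, H2-T22 with H2-T23, and H2-K1, in 0.131% of its 90-base windows, with H2-D1 and H2-Q7. The part of shared reads in the correlations was not tested.

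The genes most like the sum of H2-K1, H2-D1 and B2m were sought in 2 ways. Over 15 units of 1 library, 1 T cell gate and 1 Mki67 side, with 4073 genes, Pearson's r was highest for Dctn6 (0.95), Ube2b (0.94), Lmbrd1 (0.94) and Galnt6 (0.93), followed by H2-T23 (0.93) and the cell cycle inhibitor Cdkn1b (0.92). H2-Q6 had an r of 0.02 there. Over the 8854 CD8-gated anti-PD-1 cells, with 6482 genes, Spearman's rho was highest for H2-Q7 (0.57) and H2-T23 (0.46), followed by Shisa5 (0.44), Ly6a (0.42), Malat1 (0.39), Ly6e (0.38) and Ifi27l2a (0.37). Ly6a, Ly6e and Ifi27l2a are known interferon-responsive genes. The units share libraries and depth, and the cells share 1 library.

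Part of the Q and T values is uncertain because their transcripts share sequence with other genes. In the last 500 bases of the transcript, where the droplet method reads, 26.5% of 90-base windows of H2-T22 were also found in other genes. The share there was 13.4% for H2-T23, 10.95% for H2-Q6 and 9.49% for H2-Q4. H2-K1, H2-D1, B2m and H2-Q7 had 0% there. Over whole transcripts the share was 18.1% for H2-Q7 and 0.131% for H2-K1, and H2-T10 was among the genes that shared windows with H2-T22. How reads shared by several genes were counted is not given in the sources used here.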

How the data were processed

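RNA of single cells from 4 libraries, 1 per arm, was captured in 10x Genomics droplets, as the labels' protocols state. Build mm10 and the tools Seurat and Cell Ranger are listed in the submitters' processing notes, without versions. The deposited values are natural log values: per the values themselves, a value is ln(1 + x), with x the UMIs of the gene per 10000 of its cell, minus 1 constant per library (0.153 for ATT-I, 0.225 for the combination, 0.247 for vehicle, 0.249 for anti-PD-1) whose reason is not given in the sources used here, with values under 0 set to 0. With the constant, 100% of non-zero values came out within 0.02 of a whole UMI. In the deepest cells (21 of vehicle, 37 of the combination, 37 of anti-PD-1) genes with 1 UMI are at 0. No cell was removed, and no doublet caller was run.

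From the recovered UMIs, levels, ratios with exact conditional binomial 95% intervals, and gated sums were computed with pandas 2.3.3, scipy 1.17.1 and numpy 2.4.6 under Python 3.11.15, and gated sums were tested with limma 3.58.1 under R 4.3.3. Genes entered with a UMI in at least 10% of cells of a side, and a side needed 20 cells. All 8 genes passed, since each had a UMI in at least 75.9% of the cells of every library. The scripts were tested on simulated data. Alternatives were other gates, depth windows, scalings, filters, pseudocounts and left-out libraries. The genes, lists and tests were chosen with earlier results of these data known. Named beside the 8 genes are members of 6 lists (peptide loading, immunoproteasome, transcription factors, interferon-stimulated genes, receptors, other class I genes), mostly those that passed, and the 5 genes most like the sum of H2-K1, H2-D1 and B2m by each measure. Promoter windows are RefSeq's (GRCm38.p6). All 8 matched. The values of 1 listed gene are not reported here.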

Additional observations from a re-analysis of the deposited data

Results flagged for a closer look

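ATT-I was set against its absence in 2 backgrounds, without anti-PD-1 (ATT-I against vehicle) and with it (combination against anti-PD-1), and 4 genes lay on opposite sides of 0 with intervals that did not reach it. With 1 library per arm the difference between the 2 backgrounds was not tested. H2-D1 was at 0.0863 on the log2 scale without anti-PD-1 and at -0.5467 with it. The light chain B2m was at -0.3344 and 0.1635. H2-Q4 was at -0.2595 and 0.3697, and H2-Q6 at -0.2101 and 0.4792. The medians of all genes were -0.22 and 0.13; relative to them H2-D1 stood at 0.31 and -0.68, B2m at -0.11 and 0.03, H2-Q4 at -0.04 and 0.24, and H2-Q6 at 0.01 and 0.35, so that H2-Q6 was then on 1 side of 0. In cells of 5000 to 20000 UMIs, not set against the median gene, B2m (-0.48 and 0.47), H2-Q4 (-0.36 and 0.62) and H2-Q6 (-0.38 and 0.79) were still on opposite sides of 0. H2-D1 was not (-0.12 and -0.18). The medians of all genes in that range were -0.45 and 0.30. H2-Q4 and H2-Q6 stood above both medians. H2-D1 stood above the first and below the second, and B2m below the first and above the second.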

How the results depend on the processing

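Depth was the choice that moved most values. Not set against the median gene, H2-K1 turned for anti-PD-1 against vehicle, from 0.33 to -0.15 (5000 to 20000 UMIs). It was at -0.31 from 5000 to 10000 UMIs, a range chosen after seeing the data. For the combination against anti-PD-1 it turned from -0.45 to 0.0402 and 0.19, and H2-D1 turned from -0.55 to 0.0012 in the narrower range. The medians of all genes in these ranges were -0.42 and -0.43 for the first comparison and 0.30 and 0.38 for the second. H2-K1 stood above the medians of the first comparison and below those of the second, as over all cells. H2-D1 at 0.0012 was below its median too. Of 360 gene values between arms, 5 past the fold changed sign. Apart from those 5, 182 moved outside the counting interval of the value over all cells, and 173 did not move. The counting error of the alternative value itself was not included. Values relative to the median gene and on the deposited natural log scale were among the 360, so a move is not a measure of counting error alone. Counted across all 360, 65 changed sign, those 5 among them. Of 360 between gated cells 64 lost the call, 2 gained one and 294 were called or not called as before, and 26 changed sign, 0 of them from a called value. Genes past the fold for ATT-I against vehicle numbered 1, and 0 relative to the median gene, in Ifit3-negative cells or on the deposited natural log values. They numbered 2 in Mki67-negative cells (17.7% of all genes higher, 44.4% lower) or with the 3 gates weighted equally (13.8% and 44.8%). In either depth range they numbered 6, where 57.3% and 58.5% of all genes were lower. For the combination against vehicle 0 became 1 in Mki67-negative cells (38.1% of all genes higher, 24.7% lower), with equal weights (13.5% and 31.1%) and from 5000 to 10000 UMIs (32.5% and 34.9%). Against ATT-I, 0 became 1 with a mean over cells (45.3% higher, 15.8% lower) or equal weights (36.3% and 19.8%), and 2 in Mki67-negative cells (50.7% and 15.2%). It became 3 from 5000 to 20000 UMIs, where 51.4% of all genes were higher and 12.6% lower. From 5000 to 10000 UMIs it became 7, where 55.2% were higher and 18.9% lower. The depth ranges were added after seeing the data where gates and ratios were concerned.

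The log2 difference of the classical to non-classical ratio kept its sign between arms under the 4 alternatives run (without H2-Q6 and H2-Q7, as a mean over cells, in Ifit3-negative cells, and from 5000 to 20000 UMIs), for the combination against vehicle at -0.06 over all cells and -0.05 in the range, though in CD8 cells the combination was the higher of the pair. Anti-PD-1 against vehicle gave 0.45, then 0.38 without H2-Q6 and H2-Q7, 0.36 as a mean over cells and 0.36 in the depth range. ATT-I against vehicle gave 0.12, then 0.0347 as a mean and 0.0413 in the range. The combination gave -0.51 against anti-PD-1, then -0.43, -0.47 and -0.41, and -0.19 against ATT-I, then -0.0932 in the range. Ifit3 gave -0.29, then -0.45, -0.33 and -0.33, and Mki67 -0.24, then -0.17, -0.16 and -0.16. Without H2-Q6 and H2-Q7 CD8 against CD4 went from -0.37 to -0.22, and regulatory from 0.04 to 0.16.

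Of 8 genes, the 7 called for Ifit3 became 2 without the library block, 3 without the filter on low genes, 3 in the depth range, 1 in CD8-gated cells, and 4 (without ATT-I) to 6 with a library left out. The 4 called for Mki67 became 1 on thinned cells, 0 without the block, 1 without the filter, 0 in the depth range, and 1 (without ATT-I) to 4 with a library left out, 2 of them without anti-PD-1. The 4 called for CD8 against CD4 became 0 without the block, 0 without the filter, 0 in the depth range, and 2 (without vehicle or the combination) to 4. Regulatory cells gave 0 wherever a fit was possible. The share of all genes called was not counted under these alternatives, so a lost call cannot be read as particular to these genes. No paired analysis of replicates was possible because each arm has 1 library. Mki67 in CD8 cells, CD8 against CD4 in Mki67-negative cells, and regulatory cells thinned, in the depth range or Mki67-negative had under 3 libraries with enough cells and were not run.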

Other observations

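Other class I genes than the 8 were sparse: of 19 listed, 7 were in the table and 3 were frequent enough to compare anti-PD-1 with vehicle. H2-Q10, a Q-region heavy chain, stood at 0.658 UMIs per 10000 in vehicle, 0.250 under anti-PD-1, 0.549 under ATT-I and 0.747 under the combination, with anti-PD-1 the lowest as for H2-Q4 and H2-Q6. H2-M3, which presents formylated peptides, was highest under anti-PD-1 at 0.924 and stood at 0.589 under the combination.

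Of the 8 peptide loading genes, which fill class I with peptide, the combination had 3 higher and 0 lower than vehicle (median log2 difference 0.14, all genes -0.07, with 12.8% of them higher and 27.0% lower) and 6 higher and 0 lower than ATT-I (median 0.43, all genes 0.15, 37.4% higher and 19.4% lower). ATT-I had 0 higher and 3 lower than vehicle (median -0.23, all genes -0.22, 12.3% higher and 42.6% lower). Tap1 stood at 2.28 under the combination and 1.76 under ATT-I. Of the 5 immunoproteasome and PA28 genes 3 were higher and 0 lower under anti-PD-1 than in vehicle (median 0.35, all genes -0.24, 18.0% higher and 45.3% lower). These are single libraries, with no test.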
